A study of Homo sapiens with 6 samples.

Results

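Metallothioneins are small, cysteine-rich proteins that bind zinc and copper in the cytoplasm, and they are among the best known transcripts induced by these metals and by cadmium. Free zinc is sensed by MTF1, a zinc finger transcription factor that binds metal response elements in the promoters of the metallothionein genes and of SLC30A1, the exporter that carries zinc out across the plasma membrane. Together these genes buffer zinc inside the cell, sense it and remove it.

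The genes described here were fixed by name as 6 metallothioneins (MT1E, MT1F, MT1G, MT1M, MT1X and MT2A), MTF1 and SLC30A1, and all 8 are among the 19792 genes of the deposited table. The libraries came from BT549 (BT-549), a cell line from a human triple-negative breast cancer, which carried a tetracycline-inducible WDR5 shRNA (tetWDR5) with puromycin resistance, and WDR5 is a subunit of the COMPASS complexes that methylate histone H3 at lysine 4. Vehicle (0.1% DMSO) was given to 3 cultures and 500 ng/ml doxycycline (DOX), which switches the shRNA on, to the other 3, for 7 days in both groups. All 6 cultures carried the shRNA and grew in medium with serum and insulin, so an effect of DOX itself cannot be told apart from that of the shRNA.

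The one measured value per gene that was used is the mean normalized count that the authors computed over both groups, so each level below is that of vehicle and DOX cultures pooled. The level in each group and the change with DOX were not analysed here, and no test between the groups was made. The same holds for WDR5 itself, with a mean normalized count of 1143 over both groups. The deposited mean comes with no replicate error, and the total reads of each library are not given. Values of single libraries are shown only for genes with a mean under 25, where they were solved from the mean itself. Of the markers of a mesenchymal breast cancer line, all 5 (VIM, FN1, SPARC, ZEB1 and CDH2) had mean normalized counts of at least 500, with VIM at 47782. Of 8 epithelial or luminal markers, ERBB2 (1221) and KRT18 (435) were the highest and CDH1 followed at 59.6, whereas ESR1, PGR and EPCAM lay between 0.790 and 1.30. The endothelial markers PECAM1 and VWF were at 2.86 and 0.621, and of the immune markers PTPRC was at 44.7, CD68 at 1813 and CD3E was without a row.

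The promoters of the 2 most abundant metallothioneins and of SLC30A1 are shown because they hold the element through which MTF1 is known to act. In the lines below, the 250 bases before the start site are given 5′ to 3′ on the gene's strand (RefSeq, GRCh38.p14), and capitals mark each core of the metal response element, TGCACNC or TGCGCNC, searched on both strands. MT2A lies at chr16:56608334-56608583 (plus strand), MT1X at chr16:56682220-56682469 (plus strand) and SLC30A1 at chr1:211579162-211579411 (minus strand).
MT2A: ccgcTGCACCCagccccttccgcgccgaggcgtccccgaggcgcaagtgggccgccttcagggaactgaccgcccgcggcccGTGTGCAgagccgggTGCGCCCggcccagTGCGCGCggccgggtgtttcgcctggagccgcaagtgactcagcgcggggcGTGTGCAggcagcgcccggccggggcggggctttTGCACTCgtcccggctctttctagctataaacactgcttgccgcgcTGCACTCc
MT1X: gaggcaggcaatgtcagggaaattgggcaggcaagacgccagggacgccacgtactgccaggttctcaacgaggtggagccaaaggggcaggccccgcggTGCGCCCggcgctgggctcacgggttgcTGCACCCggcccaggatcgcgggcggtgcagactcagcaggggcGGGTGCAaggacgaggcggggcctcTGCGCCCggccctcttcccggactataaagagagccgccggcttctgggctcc
SLC30A1: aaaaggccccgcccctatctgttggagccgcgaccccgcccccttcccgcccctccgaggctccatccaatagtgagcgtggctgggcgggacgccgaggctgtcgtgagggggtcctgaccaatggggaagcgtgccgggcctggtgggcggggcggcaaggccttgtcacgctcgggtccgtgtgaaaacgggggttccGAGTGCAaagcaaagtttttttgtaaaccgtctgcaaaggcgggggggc

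From 250 bases before to 50 after the start site, MT2A held 8 cores, 5 on its own strand and 3 on the opposite one, and no core overlapped another. As a background, 29.6% of 35116 RefSeq promoters of that length held at least 1 core and 0.0199% held 8 or more. MT1X held 4 cores, a number reached by 0.601% of promoters. SLC30A1 held 2, both on the opposite strand, a number reached by 8.60% of promoters. No core was found in the window of MTF1, which says only that these letters are not in that stretch. The promoter table had entries for 4 of the 8 genes, and MT1E, MT1F, MT1G and MT1M had none.

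Of the 7 metallothioneins outside the 8 genes, 3 had a promoter entry, and all 3 held cores (MT1H 8, MT1B 3 and MT4 3). Some of these cores lay at like distances from the start site. A core on the gene's strand began 53 or 54 bases before the start site in MT2A, MT1X, MT1H and MT1B, and a core on the opposite strand began 78 or 79 bases before it in MT1X, MT1H and MT1B. No core of MT4 began at these distances, and none on the opposite strand of MT2A did. MT2A and MT1H had a further core 8 bases before the start site. MT1B held 3 cores and MT1X 4, and their mean normalized counts were 0.345 and 711. MT2A and MT1H held 8 each, with MT2A at 2446 and MT1H without a row in the deposited table. MT4, with 3 cores, was also without a row. SLC30A1 held 2 cores and MTF1 none, at 777 and 1531. Whether the number of cores bears on the level was not tested. The 7 promoters ran from 60.3% GC in MT1B to 72.0% in MT2A, against a median of 58.7% over all promoters, and MTF1, which held no core, was at 69.7%.

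**Figure D1:**
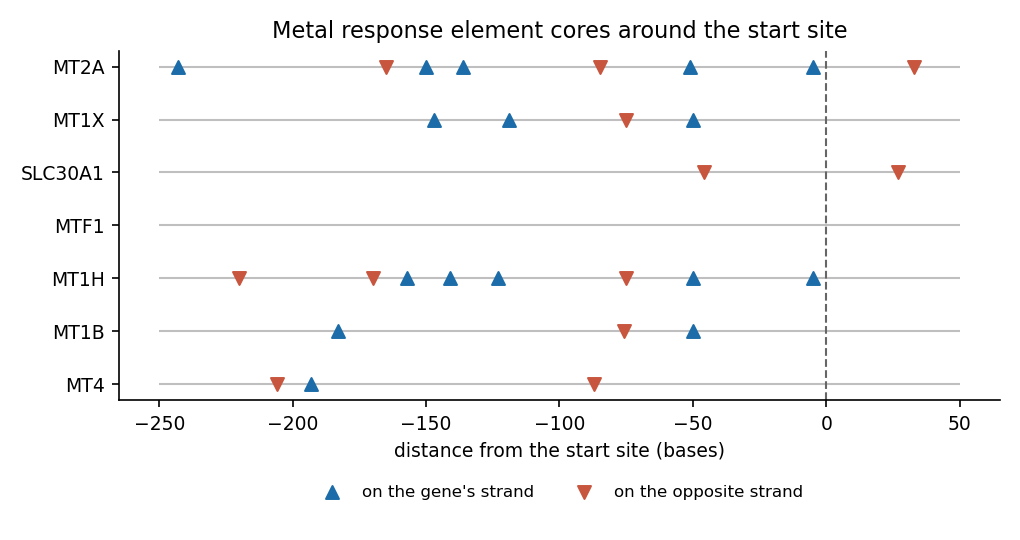
Positions of metal response element cores (TGCACNC or TGCGCNC) from 250 bases before to 50 after the start site of 7 genes, with the distance in bases on the x axis and 1 gene per line; upward triangles are cores on the gene's strand and downward triangles those on the opposite strand. MT2A and MT1H hold 8 cores each, MT1X holds 4, SLC30A1 holds 2 and MTF1 holds none.

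MT2A, the functional human gene of the MT2 type, was the most abundant of the 8 genes. Its mean normalized count was 2446, which ranked it 2653 of 19792 genes. Levels between genes were compared per kilobase (kb), since longer transcripts yield more reads, and the length was the union of all annotated exons (GENCODE 44). On this scale MT2A was at 2677 per kb, at the 98.4 percentile of the 18323 genes with a length. The 2677 per kb was 10.9 times the level of the general transcription factor TBP, whereas the actin gene ACTB was 15.6 times above MT2A. With the length of the representative transcript in place of all exons, MT2A was 19.9 times TBP and ACTB 16.6 times MT2A.

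MT1X was the second of the metallothioneins, with a mean normalized count of 711 and 412 per kb (84.6 percentile). MT2A was 6.50 times above it per kb of exons. MT1E followed with a mean normalized count of 201 and 191 per kb (71.5 percentile). The 3 other metallothioneins were far lower. MT1F had a mean normalized count of 20.3, MT1G of 6.51 and MT1M of 6.39, and per kb of exons they were at 11.0, 8.67 and 12.5. These levels per kb were below the median of all genes with a length, 49.3.

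MT2A alone held 72.1% of the summed mean normalized counts of the 6 metallothioneins, MT1X held 21.0% and MT1E 5.94%. MT1F, MT1G and MT1M held 0.980% between them. As a whole, the 6 genes made up 0.0128% of the summed mean normalized counts of all genes. These shares are of reads and are not corrected for length.

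The annotated exons of several metallothioneins include retained introns, so that the length of 1 transcript is much shorter than that of all exons. For MT2A the exons covered 914 bases and the representative transcript 401, and for MT1X they covered 1727 and 404. Per kb of the representative transcript, MT2A was at 6101, MT1X at 1761 and MT1E at 270, in the same order as before. The ratio of MT2A to MT1X then fell to 3.47. The order of the lowest metallothioneins was not stable to the length used, since MT1F was at 47.9 per kb of transcript, above MT1M at 16.0 and MT1G at 15.9, whereas per kb of exons MT1M was above MT1F.

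MTF1, the zinc sensor, was below the level of TBP with both lengths. Its mean normalized count was 1531, and with exons of 7989 bases this gave 192 per kb (71.6 percentile), 0.782 times the level of TBP. Per kb of the representative transcript it was 0.630 times TBP. MTF1 and MT1E were level per kb of exons (192 and 191), whereas per kb of the representative transcript MT1E (270) was above MTF1 (193). SLC30A1, the plasma membrane exporter, had a mean normalized count of 777 and 132 per kb (65.0 percentile). Per kb of exons MTF1 was at 1.45 times SLC30A1 and MT2A at 20.3 times, and per kb of the representative transcript the ratio of MT2A to SLC30A1 was 46.3.

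**Figure D2:**
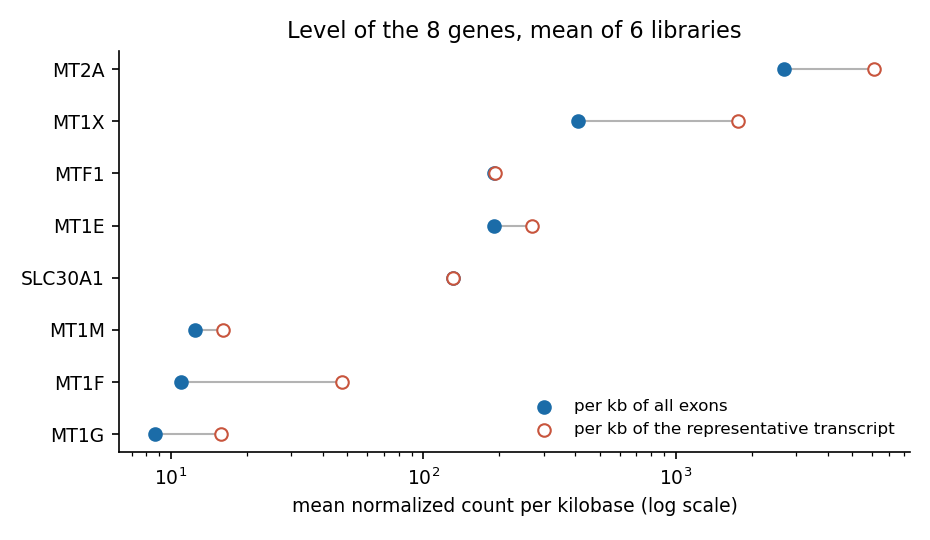
Level of the 8 genes as the mean normalized count per kb over 6 libraries, on a logarithmic x axis; filled points use the length of all annotated exons and open points that of the representative transcript. MT2A (2677 and 6101) and MT1X (412 and 1761) are the highest on both scales, and MT1F, MT1G and MT1M are the lowest.

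The metallothioneins lie in 1 cluster on chromosome 16 of GRCh38, where the 6 genes span 75.6 kb from 56608584 to 56684196 (GENCODE 44), 5 on the plus strand and MT1G on the minus strand. The most abundant genes, MT2A (56608584 to 56609497) and MT1X (56682470 to 56684196), are at the opposite ends of that span. MT1M (56632659 to 56633981), MT1F (56657731 to 56660698) and MT1G (56666730 to 56668065) lie between them. MT1E (56625475 to 56627112) is the next member after MT2A. MTF1 (37809574 to 37859592) and SLC30A1 (211571568 to 211579161) are both on the minus strand of chromosome 1.

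For genes with few reads, the values of single libraries could be read from the mean itself. A normalized count is the number of reads divided by the library's size factor, so a gene with 1 read in 1 library has a mean that depends on that library alone. The 6 lowest values that many genes shared, each found in 165 to 257 genes, were taken as these single-read values. They gave size factors of 1.34, 1.16, 1.16, 0.967, 0.793 and 0.737. All 5358 genes with a mean normalized count under 5, and all 1997 genes from 5 to under 25, were whole numbers of reads in these 6 libraries, with 1 solution each within a tolerance of 5e-13. The libraries carry no label in the table, so they are named by their size factor, and none was assigned to vehicle or DOX. For the more abundant genes, MT1E, MT1X, MT2A, MTF1 and SLC30A1, this was not done.

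MT1F had 119 reads in all, and each of the 6 libraries had at least 10. From the highest size factor to the lowest, its reads were 23, 13, 27, 10, 24 and 22, and its normalized counts were 17.1, 11.2, 23.3, 10.3, 30.3 and 29.9. The highest normalized count of MT1F was thus 2.93 times the lowest, and the libraries with the smallest size factors, 0.793 and 0.737, were the highest.

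MT1G had 38 reads, with 8, 6, 6, 3, 7 and 8 in the same order of libraries. Its normalized counts ran from 3.10 in the library with the size factor 0.967 to 10.9 in the library with the size factor 0.737. MT1M had 36 reads, with 3, 4, 10, 4, 5 and 10 in the same order, and its normalized counts ran from 2.23 to 13.6. The library with the size factor 0.737 was the highest for both MT1G and MT1M, and at 3 to 10 reads a library these differences rest on few counts. The library with the size factor 0.967 was the lowest for MT1F and for MT1G, and MT1M was lowest in the library with the size factor 1.34.

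Of the 7 other metallothioneins, MT1L, MT1A, MT1B and MT3 are in the table, whereas MT1H, MT1HL1 and MT4 are without a row. MT1L, annotated as a transcribed pseudogene between MT2A and MT1E, was the highest of them, with a mean normalized count of 14.5 from 88 reads. Its reads were 13, 12, 31, 7, 9 and 16 in the order used above, and its normalized counts ran from 7.24 to 26.7. MT1A was a single read in 1 of the 6 libraries, and MT1B was 2 reads in 1 library. MT3, which is best known from the brain, had 8 reads in 5 libraries. In these cells, the coding metallothioneins whose mean normalized count reached 10 were thus MT2A, MT1X, MT1E and MT1F.

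**Figure D3:**
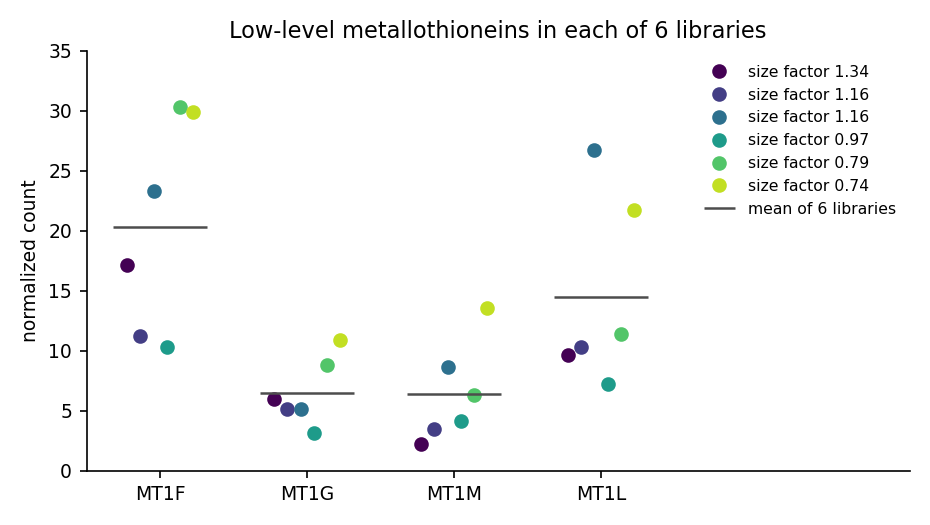
Normalized counts of MT1F, MT1G, MT1M and the pseudogene MT1L in each of 6 libraries, named by size factor and not assigned to a group, with the mean over the libraries as a line. MT1F runs from 10.3 to 30.3, MT1G from 3.10 to 10.9, MT1M from 2.23 to 13.6 and MT1L from 7.24 to 26.7.

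SLC30A1 is 1 of 10 members of the SLC30A family, most of which move zinc out of the cytoplasm, and SLC30A10 is best known for carrying manganese. Of the 9 others, 5 reached a mean normalized count of 10, as did 68.5% of all 19792 genes. SLC30A5, SLC30A6 and SLC30A7, which load zinc into the early secretory pathway, were at 469, 220 and 253 per kb of exons. SLC30A9, a mitochondrial zinc transporter, was at 336. Each of these 4 was higher than SLC30A1 at 132 per kb, by 3.56 times for SLC30A5 and 1.92 times for SLC30A7. SLC30A4, of endosomes and lysosomes, was lower, at 46.1. SLC30A2, SLC30A3, SLC30A8 and SLC30A10, known from secretory cells, neurons, pancreatic beta cells and liver, had 5 to 15 reads over all 6 libraries.

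The importers of the SLC39A family bring zinc into the cytoplasm from outside the cell or from organelles. Of these, 11 of 14 reached a mean normalized count of 10, against 68.5% of all genes. SLC39A14, which carries zinc, iron and manganese, was the highest at 3267 per kb of exons, 24.8 times SLC30A1, and was the one gene of the transporter lists above MT2A on this scale. Per kb of the representative transcript the order of these 2 genes turned, with MT2A at 6101 and SLC39A14 at 4839. SLC39A7, SLC39A6, SLC39A1 and SLC39A8 were at 1162, 1143, 1054 and 969 per kb of exons. SLC39A9 was at 357, and SLC39A10, SLC39A3 and SLC39A13 were at 152, 116 and 113. SLC39A11 and SLC39A4, the intestinal importer, were at 52.5 and 51.2, near the median of all genes. SLC39A2 and SLC39A5 had 1 read each, and SLC39A12 had 6.

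In the set of metal and oxidant response genes, NQO1 was at 7170 per kb of exons, TXNRD1 at 1831 and HMOX1 at 1692. GCLM and SLC7A11 were at 425 and 418, and GCLC was at 141. MT2A, at 2677, thus stood between NQO1 and TXNRD1, also per kb of the representative transcript. MT1X was level with GCLM and SLC7A11 per kb of exons (412), but per kb of the representative transcript it was at 1761 and they were at 472 and 418.

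**Figure D4:**
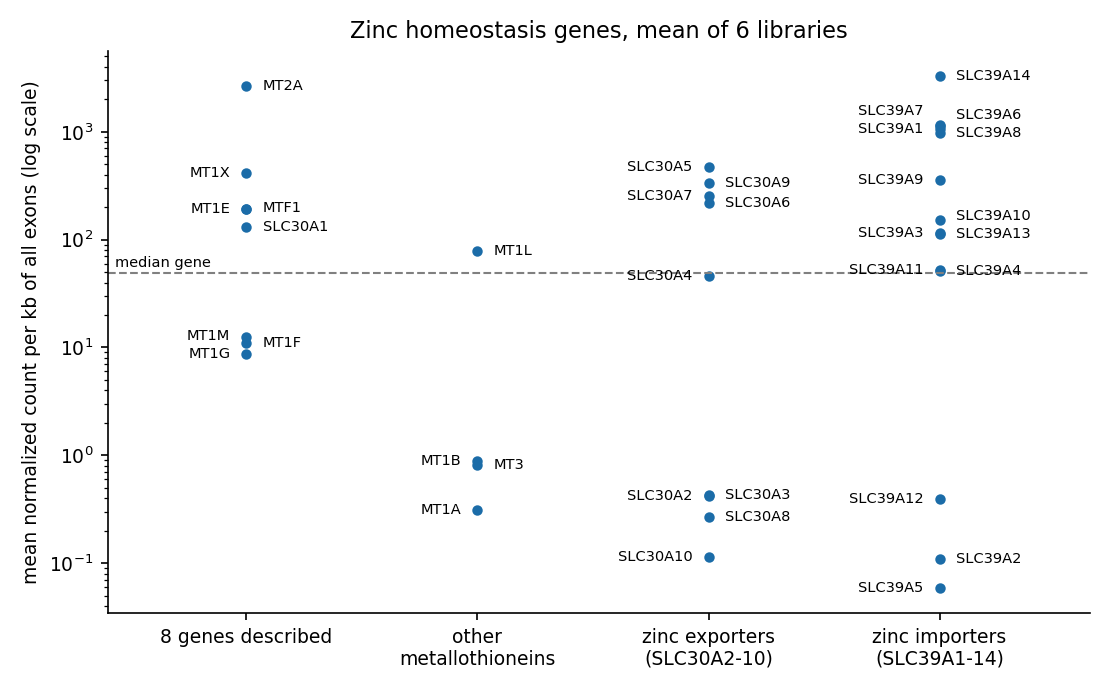
Mean normalized count per kb of all exons over 6 libraries, on a logarithmic y axis, for the 8 genes, 4 other metallothioneins, 9 zinc exporters and 14 zinc importers; each point is a gene and the dashed line is the median of all genes with a length, 49.3. MT2A (2677) and SLC39A14 (3267) are the highest, and MT1A, MT1B and MT3 are below 1.

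Metallothionein genes arose by duplication, and reads from stretches that 2 genes share cannot be assigned to 1 of them. For each gene, every stretch of 75 bases of the representative transcript was looked up in the transcripts of all other genes (GENCODE 44, both strands). No such stretch of the representative transcripts of MT2A, MT1F, MT1M or SLC30A1 recurred in another gene. For MT1E 1.64% of stretches recurred, in transcripts of MT1G and MT1M other than their representative ones. For MT1G 6.55% recurred, in MT1X and the pseudogene MT1XP1. MTF1 shared 0.420% of its stretches.

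MT1X stood apart, with 36.1% of its 75-base stretches in another gene. Most of these belonged to a long noncoding RNA gene (ENSG00000259827) that overlaps MT1X on the same strand, with exons in common. Apart from that gene, 8.18% recurred elsewhere, in MT1G and MT1XP1. A counter that drops reads falling in 2 genes would leave out part of the reads of MT1X, and how the authors' counting treated them is not given in the sources used here. With stretches of 50 bases, the shared part rose to 51.0% in MT1X, 19.9% in MT1G, 14.6% in MT1M, 11.1% in MT2A, 10.3% in MT1E and 6.12% in MT1F. The low values of MT1G and MT1M may therefore be uncertain beyond their counting error, the more so if the reads were short. The read length was not given, and the effect of shared stretches on the counts was not tested.

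**Figure D5:**
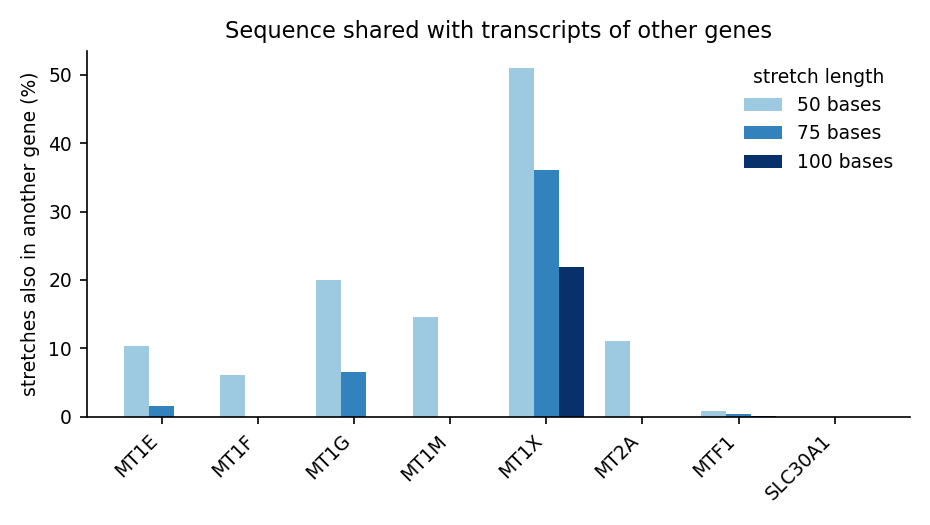
Percent of stretches of 50, 75 and 100 bases of each gene's representative transcript that also occur in a transcript of another gene, with bars from 0. MT1X is the highest at each length (51.0%, 36.1% and 22.0%), SLC30A1 is at 0 throughout, and MT1F, MT1M and MT2A are at 0 from 75 bases on.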

How the data were processed

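RNA-seq was performed on 6 cultures of BT549 cells with an inducible WDR5 shRNA, 3 with vehicle and 3 with DOX. By the study's methods and labels, libraries were made from poly(A) RNA with strand kept, and the authors placed the reads on GRCh38 with STAR and normalized gene counts with DESeq2. The 1 column used holds a signal deposited by the authors, the mean normalized count (counts divided by size factors, averaged over all 6 libraries), which is not corrected for length. The other 5 value columns hold the authors' own comparison of DOX with vehicle (log2 fold change, its standard error, statistic, p-value and adjusted p-value) and were not used here. The planned count test of DOX against vehicle needs the counts of single samples and was not run.

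Levels per kb used GENCODE 44 on GRCh38. Of the 19792 symbols, 17729 matched directly, 594 through an older symbol and 1469 not at all. Reads of genes with a mean under 25 were solved as whole numbers from the 6 recurring single-read values, a step chosen after the data were seen and tested on simulated data. Promoter sequences were from RefSeq (GRCh38.p14). The 8 genes and the lists (other metallothioneins, zinc exporters and importers, metal and oxidant response genes, cell type markers) were chosen by name with earlier results of these data known. The text names the 8 genes and the genes of these lists. Computation used Python 3.11.15, numpy 2.4.6, pandas 2.3.3 and matplotlib 3.10.9. Alternatives were the length, the genes ranked, the shares without the 10 highest genes, the promoter window, the motif and the stretch length.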

Additional observations from a re-analysis of the deposited data

How the results depend on the processing

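The order MT2A, MT1X and MT1E held per kb of exons, per kb of the representative transcript and with no length, and the values moved as follows. Per kb of the representative transcript, the levels were 6101 for MT2A, 1761 for MT1X, 270 for MT1E, 47.9 for MT1F, 16.0 for MT1M, 15.9 for MT1G and 193 for MTF1, and the level of SLC30A1 did not move. With no length, the mean normalized counts were 2446, 711, 201, 20.3, 6.39, 6.51 and 1531 for the same genes and 777 for SLC30A1. Over the 13024 genes with a length and a mean of at least 10, the percentiles were 97.7 for MT2A, 78.3 for MT1X, 60.0 for MT1E, 12.0 for MT1F, 60.0 for MTF1 and 50.7 for SLC30A1, and MT1G and MT1M were below that mean. Genes were also ranked per kb of the representative transcript, over all genes with a length. The percentiles were then 98.8 for MT2A, 94.3 for MT1X, 69.1 for MT1E, 63.1 for MTF1 and 57.0 for SLC30A1. MT1F, MT1M and MT1G were at 44.2, 35.8 and 35.7. Without the 10 highest genes, the shares of summed counts were 0.0136% for the 6 metallothioneins, 0.0348% for the exporters and 0.193% for the importers. Over all genes these shares were 0.0128%, 0.0328% and 0.182%.

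With stretches of 50 bases, the shared part was 10.3% for MT1E, 6.12% for MT1F, 19.9% for MT1G, 14.6% for MT1M, 51.0% for MT1X, 11.1% for MT2A and 0.900% for MTF1. With 100 bases it was 0% for MT1E and MT1G, 22.0% for MT1X and 0.0510% for MTF1. The number of the 4 matched promoters with a core was 3 in the 250 bases before the start site (24.8% of all promoters) and 4 with the looser motif TGCNCNC (55.9% of all promoters), which gave MTF1 1 core, and SLC30A1 kept 1 core before the start site. The deposited mean over both groups has no replicate error, so whether neighbouring levels differ was not tested. No paired analysis was possible because the result comes from no test and no column of a single sample was used. For the same reason, other normalization, filters and leaving out replicates were not run, nor was the protein identity of metallothioneins, for want of sequences.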
